A study of Mus musculus with 9 samples.

Results

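Plasma complement and clotting proteins are made mainly in the liver, and 35 of their genes were followed here in mouse liver RNA. The 35 were chosen by symbol among the 54393 genes of the count table. They comprise 7 vitamin K-dependent clotting proteins, 2 enzymes of the vitamin K cycle and carboxylation, and 6 other clotting proteins. The others are 5 genes of clotting inhibition and fibrinolysis, and 15 complement genes. Liver came from mice given antibiotics that stay in the gut lumen, to deplete the gut bacteria, in 4 libraries (replicates 1, 2, 3 and 5), and from mice without antibiotics, in 5 control libraries. All mice carried the strain label C56Bl/6j and ate the purified diet AIN-76a, and the labels name neither the drugs, the dose, the length of treatment, the sex nor the age. The comparison asks which liver transcripts differ when the microbiota is depleted. Whether every library is 1 separate mouse is not in the labels, so the p-values speak of the spread among libraries, which may be technical.

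Clotting is a chain of serine proteases that ends with thrombin cutting fibrinogen. Several of the proteases work only after an enzyme of the endoplasmic reticulum has carboxylated glutamate residues in their Gla domain, a step that consumes reduced vitamin K, which is then recycled. Vitamin K comes from plants as phylloquinone and from gut bacteria as menaquinones. The supply of the cofactor, though not directly the transcripts, can thus depend in part on the microbiota. The vitamin K supply of these mice is not part of the data used here. Complement is another cascade, opened through antibodies, through lectins that bind microbial sugars, or spontaneously, and all routes lead through C3 to a pore built from the terminal components.

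The libraries held from 15422891 to 59179622 estimated counts, with antibiotics libraries 1 to 3 shallower than every control and antibiotics library 5 the deepest. Messenger RNAs encoded by mitochondrial DNA took 4.34% to 6.55% of the counts in controls and 5.19% to 7.35% with antibiotics. Hepatocyte markers (Alb, Apoa1, Ttr, Cps1 and Tat) summed to 73978 to 88934 CPM (read counts scaled to library size) in controls and 71382 to 83404 CPM with antibiotics. Most of that sum is 1 gene, with a control mean of 65377 CPM. The log2 fold changes of the 5 ran from -0.70 to 0.40. By edgeR's quasi-likelihood test 1 of the 5 was higher at an unadjusted p under 0.05, where 9.6% of all tested genes were. Of 9 marker lists for liver cells and neighbouring tissues, 0 had a member that passed. The 6 Kupffer cell markers summed to 131 to 378 CPM in controls, the highest in control library 2, and 132 to 168 CPM with antibiotics. All 6 had log2 fold changes below 0, as did the 4 tested of 5 neutrophil and lymphocyte markers, which summed to 5.98 to 12.5 CPM and 6.13 to 7.36 CPM. The adipocyte list summed to 462 to 1007 CPM in controls and 708 to 1852 CPM with antibiotics, nearly all of it Car3, a carbonic anhydrase also made by hepatocytes (log2 fold change 0.75 ± 0.26, SE, unadjusted p = 0.0142, adjusted p = 0.152 by edgeR's quasi-likelihood test). The defining fat cell markers Adipoq, Plin1 and Lep had at most 17, 6 and 1 counts in any library, and Cfd at most 55 (log2 fold change 1.34 ± 0.77, SE, adjusted p = 0.388). The part of these markers in the values of the 35 genes was not tested. The pancreas genes Pnlip, Ctrb1 and Prss2 were at 0 in all libraries. In whole liver, fewer cells of a type and less RNA per cell cannot be told apart.

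All 35 genes were abundant: the lowest count of any of them in any library was 758, and together they took 2.22% to 2.72% of all counts. Levels were compared per kilobase of the longest transcript annotated as principal, or the longest coding one where none was. Which transcripts the liver makes was not tested, and the levels and their order depend on the length taken. By this measure C3, the central complement protein, stood highest with a control mean of 1143 CPM per kilobase. That was rank 60 of 12877 genes with a transcript length. The kininogen Kng1 (882), plasminogen Plg (847) and prothrombin F2 (753 CPM per kilobase) followed. The lowest levels belonged to protein S, Pros1, at 16.6 CPM per kilobase (rank 2537), and to the carboxylase Ggcx at 19.0 CPM per kilobase (rank 2296). In the order of control levels, the ranges of 28 of the 34 pairs of neighbours overlapped. Compared within each control library, 24 of these 28 pairs were not in the same order in all 5 controls. In the other 4 the first was higher in 5 of 5: C3 over Kng1, Plg over F2, Proc over C8g and Ggcx over Pros1. The 6 gaps between separate ranges lie below F2, Serpinc1, Proz, F13b, C2 and Masp1, as the plot of levels per length shows.

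**Figure D1:**
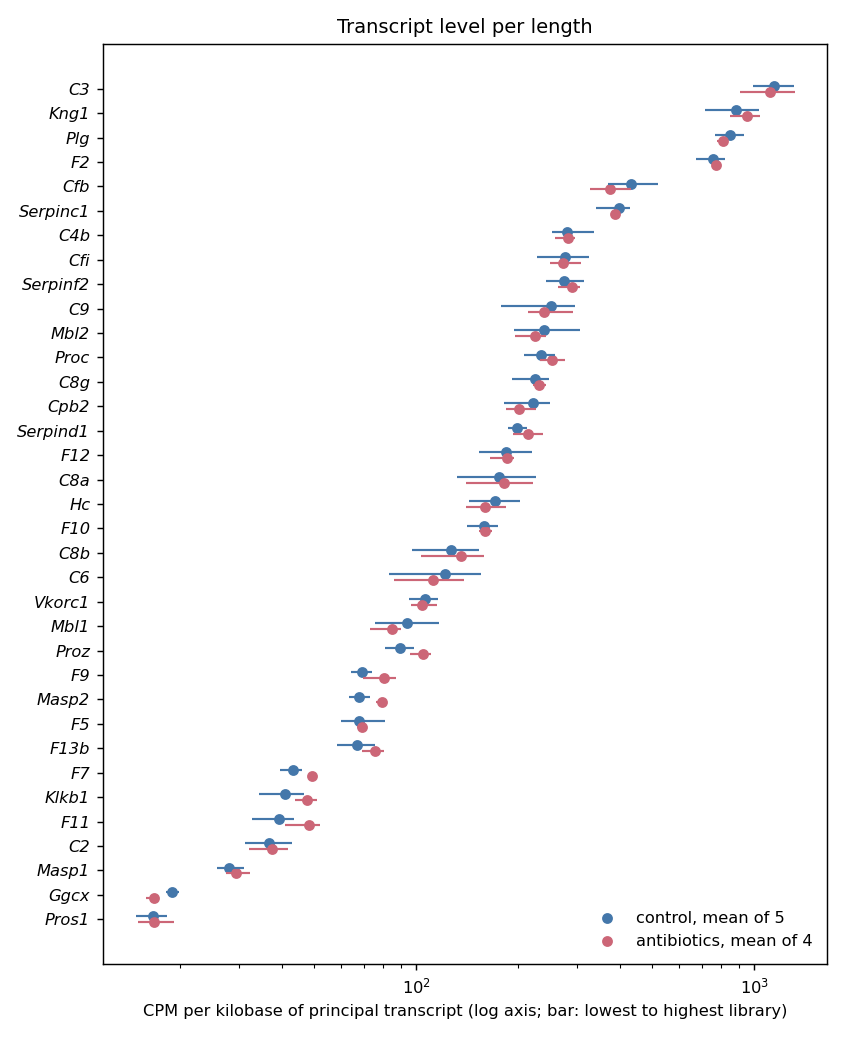
Transcript level of the 35 genes in CPM per kilobase of the principal transcript, on a log axis, as the mean (points) and the lowest to highest library (bars) of 5 control (blue) and 4 antibiotics (red) libraries. C3 lies highest at 1143 and Pros1 lowest at 16.6 CPM per kilobase in controls, and the red and blue bars overlap for all genes but F7, Masp2 and Ggcx.

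Between antibiotics and control, none of the 35 genes passed edgeR's quasi-likelihood test: 0 of 35 had an adjusted p under 0.05 (Benjamini-Hochberg over 14873 tested genes), where 2.68% of all tested genes did (1.63% higher and 1.05% lower, and 4.35% of the 2231 genes at least as abundant as the lowest member). With an unadjusted p under 0.05 there were 7 of 35 (20%), namely F7, F9, Proz, F11, Klkb1 and Masp2 with higher values and Ggcx with lower ones. Of all genes 18.5% did (9.6% higher and 8.87% lower), and of the 2231 abundant genes 25.9%. The groups did not overlap in 3 of 35 (8.57%), F7 and Masp2 higher and Ggcx lower, beside 8.88% of all genes (4.59% higher and 4.29% lower) and 12.6% of the abundant ones. With the directions pooled, both shares are close to those of all genes and below those of the abundant ones. Split by direction, the first share is 6 of 35 higher and 1 of 35 lower. Whether that split differs from the background was not tested. DESeq2 called 2 of 35 (5.71%), Masp2 higher and Ggcx lower, where it called 6.68% of its tested genes, and limma-voom called 0 where it called 2.78%.

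The differences were also bounded tightly. The 95% interval of the fold change lay within 1.5-fold in either direction for 35 of 35 genes, as it did for 60.8% of all tested genes and for 86.4% of the abundant ones. The widest bounds were a fold of 0.684 for C6 and of 1.43 for F11, so a change larger than these is outside the interval of every member. The log2 fold change was above 0 in 22 of 35 genes (62.9%, beside 48.6% of all and 45% of the abundant genes), with a median of 0.03 beside -0.0073 for all tested genes. The sign itself held under every alternative setting for 22 of the 35.

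**Figure D2:**
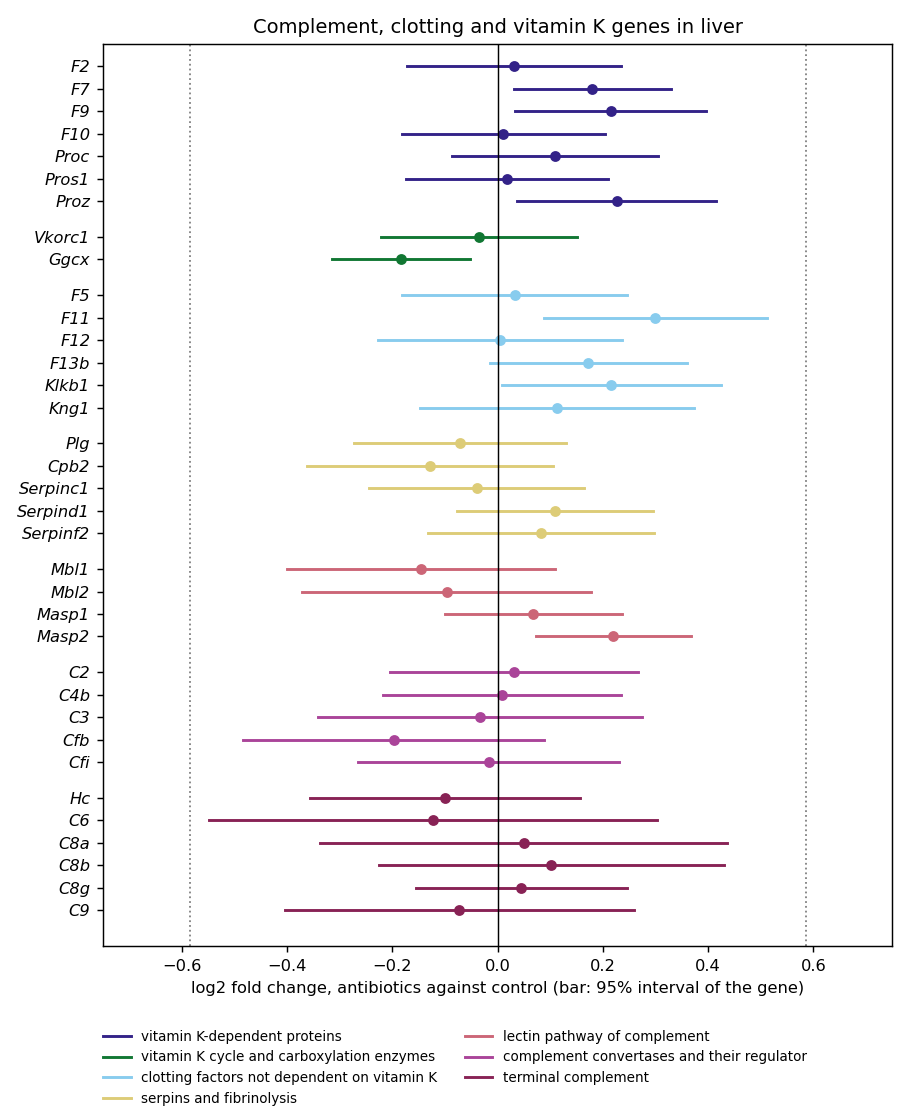
Log2 fold change (antibiotics over control) of the 35 genes with its 95% interval from edgeR's quasi-likelihood fit, grouped by role; the dotted lines mark 1.5-fold either way. All 35 intervals lie between the dotted lines, and the interval excludes 0 for F7, F9, Proz, F11, Klkb1, Masp2 and Ggcx.

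The 7 vitamin K-dependent genes had log2 fold changes from 0.01 to 0.23 with a median of 0.11, and 0 of 7 passed. All 7 were above 0 in the main fit, but F2, F10 and Pros1 fell below 0 under some alternative settings. F2 (ENSMUSG00000027249.15, chromosome 2, 91625320 to 91636414, GRCm38) encodes prothrombin, the precursor of thrombin. Its levels were 1538, 1618, 1357, 1342 and 1631 CPM in controls 1 to 5 and 1546, 1487, 1511 and 1574 CPM in antibiotics libraries 1, 2, 3 and 5. The antibiotics values all lay inside the control range, and the log2 fold change was 0.03 ± 0.09 (SE, adjusted p = 0.896).

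F7, F10 and Proz are neighbours on chromosome 8, between positions 13026034 and 13076026. F7, which starts clotting together with tissue factor, measured 84.4, 85.2, 73.4, 74.6 and 85.2 CPM in controls and 92.3, 89.3, 90.8 and 92.6 CPM with antibiotics. Every antibiotics value was above every control value, with means of 91.3 ± 1.52 (SD, n = 4) and 80.6 ± 5.99 CPM (SD, n = 5). The log2 fold change was 0.18 ± 0.07 (SE), which did not pass (adjusted p = 0.187). F10, which forms the prothrombin-cutting complex with factor V, measured 403, 434, 354, 363 and 436 CPM in controls and 383, 383, 418 and 421 CPM with antibiotics. These ranges nest within each other, at a log2 difference of 0.01 ± 0.09 (SE, adjusted p = 0.966). Proz, a cofactor of an inhibitor of factor Xa, measured 328, 331, 291, 271 and 281 CPM in controls and 371, 323, 366 and 346 CPM with antibiotics. Only antibiotics library 2 reached into the control range, and the log2 fold change of 0.23 ± 0.09 (SE) did not pass (adjusted p = 0.19).

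F9 (X chromosome), the protease whose loss causes haemophilia B, measured 194, 195, 202, 180 and 175 CPM in controls. With antibiotics it measured 221, 230, 239 and 190 CPM, so that antibiotics library 5 lay among the controls and the other 3 above them. The log2 fold change was 0.21 ± 0.08 (SE, adjusted p = 0.194). Across the 9 libraries F9 was higher where the mitochondrial mRNA share was higher (Pearson r = 0.858, exact permutation p = 0.00409, Spearman's rho = 0.80, p = 0.0138). Over the 35 genes compared with that share, 0 relations passed adjustment (for F9 adjusted p = 0.0716 for r and 0.0936 for rho), and r for F9 was 0.752 without the 2 libraries farthest from the median share and 0.771 within groups. Relations of like size also appeared in genes whose unadjusted p between the groups was not under 0.05. Among them rho was -0.85 for Mbl1, 0.817 for Masp1, -0.783 for Plg and 0.783 for F5. Their exact permutation p were 0.00607, 0.0108, 0.0172 and 0.0172, with an adjusted p of 0.0936 for each. The part of the mitochondrial share in the F9 difference was not tested.

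Proc and Pros1 belong to the anticoagulant branch, in which activated protein C with its cofactor protein S inactivates factors Va and VIIIa. Proc (chromosome 18) measured 379, 404, 327, 337 and 393 CPM in controls and 434, 393, 367 and 395 CPM with antibiotics. Antibiotics library 1 was the highest of the 9 and the other 3 lay among the controls, at a log2 difference of 0.11 ± 0.09 (SE, adjusted p = 0.553). Pros1 measured 48.9, 56.7, 60.6, 53.6 and 54.2 CPM in controls and 49.5, 52.3, 63.6 and 56.3 CPM with antibiotics. Its ranges overlapped almost fully (log2 fold change 0.02 ± 0.09, SE, adjusted p = 0.944).

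Of the 2 vitamin K enzymes 0 passed, with a median log2 fold change of -0.11. Ggcx (ENSMUSG00000053460.8, chromosome 6, 72414308 to 72430712), the gamma-glutamyl carboxylase, measured 56.0, 58.1, 54.5, 53.3 and 56.3 CPM in controls and 50.8, 46.4, 50.2 and 48.8 CPM with antibiotics. Every antibiotics library was below every control. Ggcx also varied least of the 35 genes among controls, with a coefficient of variation of 3.28%. The log2 fold change was -0.18 ± 0.06 (SE), a difference of -11.9% with a 95% interval from -19.6% to -3.55%. It did not pass with edgeR (adjusted p = 0.131) and passed with DESeq2 (adjusted p = 0.0398), with a range of adjusted p over the alternatives from 0.0398 to 0.286. Across the 9 libraries Ggcx and the mitochondrial share had r = -0.703 and rho = -0.767 (exact permutation p = 0.0387 and 0.0214, adjusted p = 0.199 and 0.0936). Within groups r was -0.476, and without the 2 libraries farthest from the median share -0.47. The part of that share in the Ggcx values was not tested.

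Vkorc1 (chromosome 7, 127893063 to 127895617), the vitamin K epoxide reductase that warfarin inhibits, measured 86.4, 81.1, 71.0, 72.4 and 86.9 CPM in controls. With antibiotics it measured 86.3, 72.2, 73.9 and 78.2 CPM, all inside the control range. The log2 fold change was -0.04 ± 0.09 (SE, adjusted p = 0.866), and the 95% interval ran from -14.3% to 11.1%. It shares 401 exon bases with the gene model Gm21974 on the same strand. Vkorc1 had the same rho to the mitochondrial share as Ggcx, -0.767 (exact permutation p = 0.0214, adjusted p = 0.0936). Its r was -0.649 (exact permutation p = 0.0644, adjusted p = 0.25). Within groups r was -0.707, and without the 2 libraries farthest from the median share -0.439. The part of that share in the Vkorc1 values was not tested. Groups thus overlapped for the reductase and not for the carboxylase, and whether the 2 genes' changes differ was not tested.

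**Figure D3:**
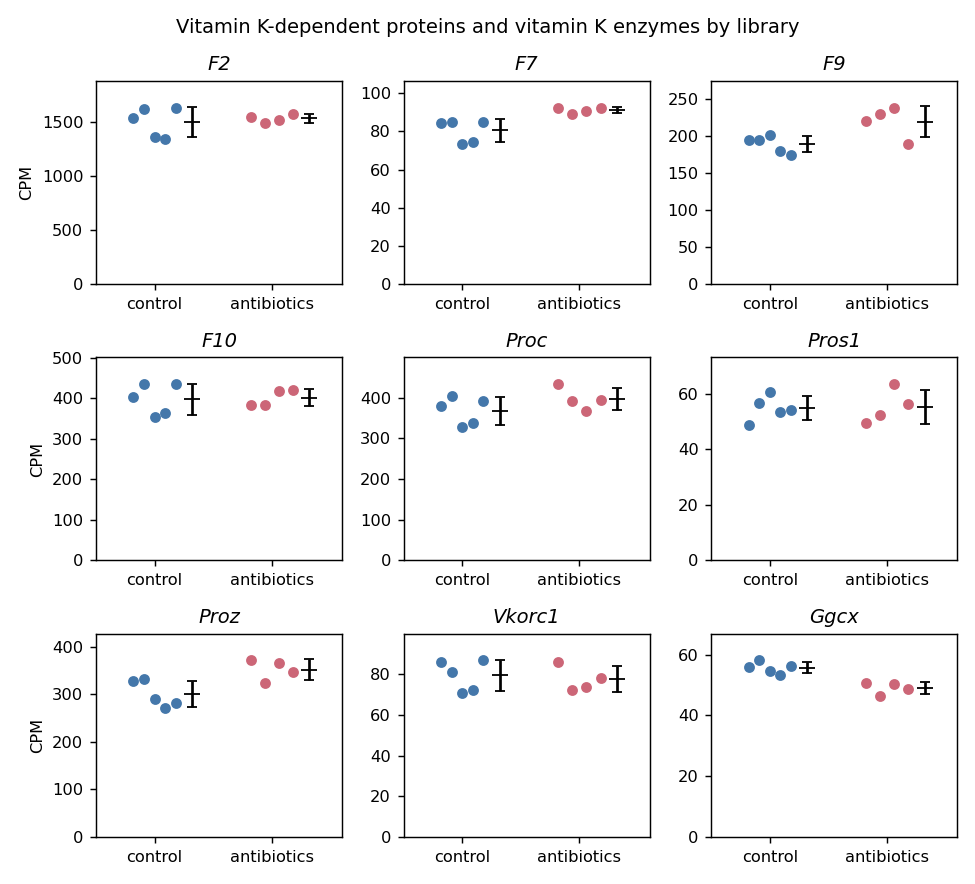
CPM of the 7 vitamin K-dependent genes and the 2 enzymes in each of 5 control (blue) and 4 antibiotics (red) libraries, with the mean and SD in black; each axis starts at 0. Groups separate for F7 (antibiotics higher) and Ggcx (antibiotics lower) and overlap for the other 7 genes.

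Among the 21 pairs of the 7 vitamin K-dependent genes, r across the 9 libraries was above 0 in 16, with a median of 0.465. It ran from -0.478 to 0.908. The pairs were adjusted in a family of 36 with those of the terminal complement genes. With 9 libraries, a pair that did not pass may still vary together. Only F2 and F10 passed adjustment for both measures (r = 0.908, exact permutation p = 0.000631, adjusted p = 0.0114; rho = 0.917, p = 0.00131, adjusted p = 0.0236). Their r was 0.913 within groups and 0.777 without the 2 libraries farthest from the median of F2. F2 and Proc (r = 0.832, adjusted p = 0.0392) and F7 and Proc (r = 0.84, adjusted p = 0.0392) passed for r but not for rho (adjusted p = 0.0886 and 0.193). Within groups these were 0.856 and 0.862. Without the 2 libraries farthest from the median of F2, or of F7 for the second pair, they were 0.273 and 0.258. Leaving out extreme libraries also narrows the range, so the lower r cannot show whether these relations rest on them. F7 and Proz also passed for r only (r = 0.819, adjusted p = 0.0392, and 0.14 for rho), with 0.708 without 2 libraries and 0.574 within groups. F2 and F7 did not pass (r = 0.748, adjusted p = 0.0859, and 0.425 for rho). Within groups their r was 0.974, the highest of the 21 pairs, and without 2 libraries -0.447. F7 and F10 did not pass either (r = 0.611, adjusted p = 0.188), with 0.884 within groups and -0.429 without 2 libraries. The values of r within groups were not tested.

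Of the 6 clotting genes that need no vitamin K, 0 passed, with log2 fold changes from 0.0038 to 0.30 and a median of 0.14. F11 and Klkb1, the contact-phase proteases factor XI and prekallikrein, lie side by side on chromosome 8 between 45241174 and 45294859. F11 measured 87.9 ± 9.19 CPM in controls (SD, n = 5; 73.0 to 97.3) and 108 ± 11.5 CPM with antibiotics (SD, n = 4; 91.7 to 116). This was the largest log2 fold change of the 35, 0.30 ± 0.10 (SE), and did not pass (adjusted p = 0.127). Antibiotics library 2 lay inside the control range and the other 3 above it.

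Klkb1 measured 215 ± 24.6 CPM in controls and 250 ± 18.2 CPM with antibiotics (log2 fold change 0.22 ± 0.10, SE, adjusted p = 0.255). Its count is not free of another gene: Gm45753, on the same strand, shares 2267 exon bases with it at 100% identity and took 20.4% to 28.8% of their joint counts in controls and 18.9% to 21.0% with antibiotics. With both counted together the log2 fold change was 0.14 (adjusted p = 0.473), an alternative chosen after seeing the data. Across the libraries Klkb1 also moved with the mitochondrial mRNA share (r = 0.832, rho = 0.833, exact permutation p = 0.00405 and 0.00827, adjusted p = 0.0716 and 0.0936), with r = 0.893 without the 2 extreme libraries and 0.729 within groups. The part of that share in the Klkb1 difference was not tested.

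F13b, the carrier subunit of factor XIII, measured 159 ± 15.6 and 179 ± 11.9 CPM (log2 fold change 0.17 ± 0.09, SE, adjusted p = 0.31). The cofactor gene F5 measured 502 ± 63.4 and 513 ± 19.5 CPM. F12, which starts the contact phase, measured 362 ± 48.9 and 363 ± 26.7 CPM, the smallest difference of this class. Kng1, the kininogen that carries prekallikrein and factor XI, measured 1612 ± 227 and 1744 ± 146 CPM, and has a copy in Kng2 with 97.5% identity over 280 bases. In these last 3 genes the group means lay closer together than 1 SD of the controls.

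Inhibitors and fibrinolysis genes showed 0 of 5 passing, with a median log2 fold change of -0.04. Serpinc1, antithrombin, measured 1688 to 2133 CPM in controls and 1904 to 1939 CPM with antibiotics. The 4 antibiotics libraries were thus close together, a coefficient of variation of 0.78% against 8.95% in controls. Serpind1, heparin cofactor, measured 435 ± 25.7 and 469 ± 42.7 CPM. Serpinf2, the inhibitor of plasmin, measured 600 ± 68.1 and 636 ± 40.8 CPM, and plasminogen itself, Plg, 2336 ± 189 and 2224 ± 52.9 CPM. Cpb2, a carboxypeptidase that slows fibrin breakdown, measured 326 ± 40.4 and 299 ± 29.2 CPM. Adjusted p-values of the 5 were 0.538 or larger, and the intervals kept each of them between a difference of -22.2% and one of 22.9%. Exons of Serpinc1 share 2942 bases with Zbtb37, and those of Plg 420 bases with Slc22a3, both on the opposite strand.

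Among the 15 complement genes 0 passed with edgeR, 1 had an unadjusted p under 0.05 and 1 passed with DESeq2, and the median log2 fold change was -0.017. That 1 gene was Masp2 (ENSMUSG00000028979.17, chromosome 4, 148602554 to 148615499), the protease that mannose-binding lectins and ficolins use to cut C4 and C2. It measured 211, 223, 204, 193 and 205 CPM in controls and 250, 244, 239 and 232 CPM with antibiotics. All 4 antibiotics libraries were above all 5 controls. The log2 fold change was 0.22 ± 0.07 (SE), a difference of 16.5% with a 95% interval from 5.20% to 29.0%. Its adjusted p of 0.105 was the smallest of the 35, DESeq2 gave 0.0243, and the alternatives ranged from 0.0243 to 0.301. Exons of Masp2 share 1817 bases with Tardbp on the opposite strand, and whether strand was used in the counting is not given in the sources used here.

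Groups overlapped in the other 3 lectin pathway genes. The mannose-binding lectins Mbl1 and Mbl2, which bind microbial sugars, measured 147 ± 23.6 and 261 ± 45.9 CPM in controls. With antibiotics they measured 133 ± 12.3 and 244 ± 24.1 CPM, with adjusted p of 0.543 and 0.731. Masp1, the partner protease, measured 149 ± 10.4 and 156 ± 11.9 CPM (log2 fold change 0.07 ± 0.08, SE, adjusted p = 0.688). Whether the change of Masp2 differs from that of the other 3 was not tested.

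C3, the protein at which all routes meet, measured 5112, 6110, 6739, 5188 and 6204 CPM in controls and 5175, 4653, 6348 and 6760 CPM with antibiotics. Its ranges overlapped widely and the log2 fold change was -0.03 ± 0.14 (SE, adjusted p = 0.928). C4b, C2 and Cfb, whose products form the convertases that cut C3, lie together on chromosome 17 between 34728380 and 34898265. C4b measured 1507 ± 178 and 1516 ± 89.2 CPM, and its copy C4a is 96.0% identical over 5378 bases. C2 measured 82.5 to 113 CPM in controls and 84.5 to 111 CPM with antibiotics. Both C2 and Cfb share exon bases (1656 and 2246) with the gene model Gm20547 on the same strand. Cfb, factor B of the alternative pathway, had the lowest log2 fold change of the 35, -0.20 ± 0.13 (SE, adjusted p = 0.455), at 1185 ± 164 and 1033 ± 155 CPM. Cfi, the protease that inactivates C3b and C4b, measured 571 ± 76.6 and 565 ± 58.0 CPM. All 5 genes had group means within 1 SD of the controls.

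The terminal components had the widest spread between libraries of 1 group. The median coefficient of variation among controls was 18.7% for these 6 genes, 11.4% for all 35, 9.16% for the vitamin K-dependent genes and 14.2% for all tested genes. C6, which joins C5b at the start of the pore, measured 239, 317, 444, 302 and 447 CPM in controls and 292, 248, 399 and 347 CPM with antibiotics. C8a, the alpha chain of C8, measured 477, 614, 819, 523 and 745 CPM in controls and 600, 509, 804 and 717 CPM with antibiotics. In both genes control 1 was the lowest of the controls, controls 3 and 5 the highest, and antibiotics library 3 the highest of its group. C9, which polymerises to the pore, measured 459, 604, 582, 366 and 561 CPM in controls and 474, 439, 594 and 448 CPM with antibiotics. Controls 2, 3 and 5 and antibiotics library 3 were its high libraries.

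No difference between the groups was detectable within this spread. The log2 fold changes were -0.12 ± 0.19 for C6, 0.05 ± 0.18 for C8a and -0.07 ± 0.15 for C9 (SE, adjusted p = 0.789, 0.915 and 0.841). Hc, whose product C5 is cut to begin the pore, measured 930 ± 115 and 868 ± 110 CPM (adjusted p = 0.699). C8b, the beta chain, measured 283 ± 50.9 and 304 ± 52.0 CPM (adjusted p = 0.769). C8g, the lipocalin-like gamma chain, measured 258 ± 29.6 and 266 ± 10.5 CPM (adjusted p = 0.838), with the lowest coefficient of variation of the 6 in both groups.

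Of the 15 pairs of terminal genes, 4 varied together across the 9 libraries past adjustment for both r and rho. C6 and C8a were closest (r = 0.941, exact permutation p = 0.000411, adjusted p = 0.0114; rho = 0.933, p = 0.00075, adjusted p = 0.0236), with r = 0.977 within groups and 0.944 without the 2 libraries farthest from the median of C6. Hc and C6 had r = 0.877 and rho = 0.883 (adjusted p = 0.0231 and 0.0277), with 0.879 within groups and 0.918 without 2 libraries. Hc and C8a had r = 0.818 and rho = 0.883 (adjusted p = 0.0392 and 0.0277), with 0.894 within groups and 0.882 without 2. C8a and C8b, neighbours on chromosome 4 between 104766317 and 104876398, had r = 0.891 and rho = 0.867 (adjusted p = 0.0231 and 0.0325), with 0.894 within groups and 0.888 without 2. C8g, the third chain of the same C8 protein, lies on chromosome 2 and did not follow them, with r = -0.115 to C8a and 0.274 to C8b (adjusted p = 0.825 and 0.664). Each group alone has too few libraries for a correlation of its own, and the tests treat the libraries of both groups as 1 set. How often pairs of other genes pass in these libraries was not tested, so the counts of pairs describe these genes only.

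The start regions of Hc and of the 3 chains of C8 are shown as a set picked by hand. Hc, C8a and C8b each took part in a pair that passed and C8g in none. C6 also took part in pairs that passed and C9 in none, and their start regions are not shown. RefSeq starts on GRCm38.p6 were found for 27 of the 35 genes, with 28 starts in all, and Masp1, Proc, Cfi, C2, Plg, Cfb, C4b and Kng1 had no entry. Each sequence is the 250 bases before the start, 5′ to 3′ on the gene's strand, with the letters TATAAA in capitals where they occur. Hc lies at chr2:35061413-35061662 (minus strand), C8a at chr4:104876399-104876648 (minus strand), C8b at chr4:104766067-104766316 (plus strand) and C8g at chr2:25501720-25501969 (minus strand). C8g has another listed start, with its window at chr2:25500507-25500756, which is not shown. Which of its starts the liver uses was not tested.
Hc: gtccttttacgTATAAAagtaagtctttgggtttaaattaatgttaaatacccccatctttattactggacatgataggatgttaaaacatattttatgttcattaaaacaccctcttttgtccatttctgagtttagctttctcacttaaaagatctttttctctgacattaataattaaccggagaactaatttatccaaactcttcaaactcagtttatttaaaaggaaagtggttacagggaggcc
C8a: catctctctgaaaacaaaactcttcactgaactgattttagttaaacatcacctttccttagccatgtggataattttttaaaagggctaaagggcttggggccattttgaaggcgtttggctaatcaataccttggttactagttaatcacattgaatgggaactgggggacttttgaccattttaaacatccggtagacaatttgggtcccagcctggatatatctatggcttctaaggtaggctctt
C8b: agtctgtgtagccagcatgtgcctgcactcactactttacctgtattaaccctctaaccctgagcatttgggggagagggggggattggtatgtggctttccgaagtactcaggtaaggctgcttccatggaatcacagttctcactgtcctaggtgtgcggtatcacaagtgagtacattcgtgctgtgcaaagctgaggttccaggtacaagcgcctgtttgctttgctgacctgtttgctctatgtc
C8g: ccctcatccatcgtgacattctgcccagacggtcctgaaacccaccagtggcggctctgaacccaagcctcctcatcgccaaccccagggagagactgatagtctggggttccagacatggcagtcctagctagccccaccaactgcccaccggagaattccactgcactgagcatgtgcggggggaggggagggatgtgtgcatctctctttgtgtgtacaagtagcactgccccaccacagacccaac
G and C make up 31.2% of these bases in Hc, 40% in C8a, 50.4% in C8b and 59.2% in C8g. TATAAA, on either strand, was in 2 of 28 member promoters (7.14%, Hc and Klkb1) and in 12.4% of 32851 promoters of the same length, and in Hc it lies 239 bases before the start. The HNF4 core CAAAGTCCA was in 0 member promoters against 0.384% of all, and the C/EBP palindrome TTGCGCAA in 0 against 0.164%, both searched on both strands. A match, or its absence, describes these letters in this window only.

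**Figure D4:**
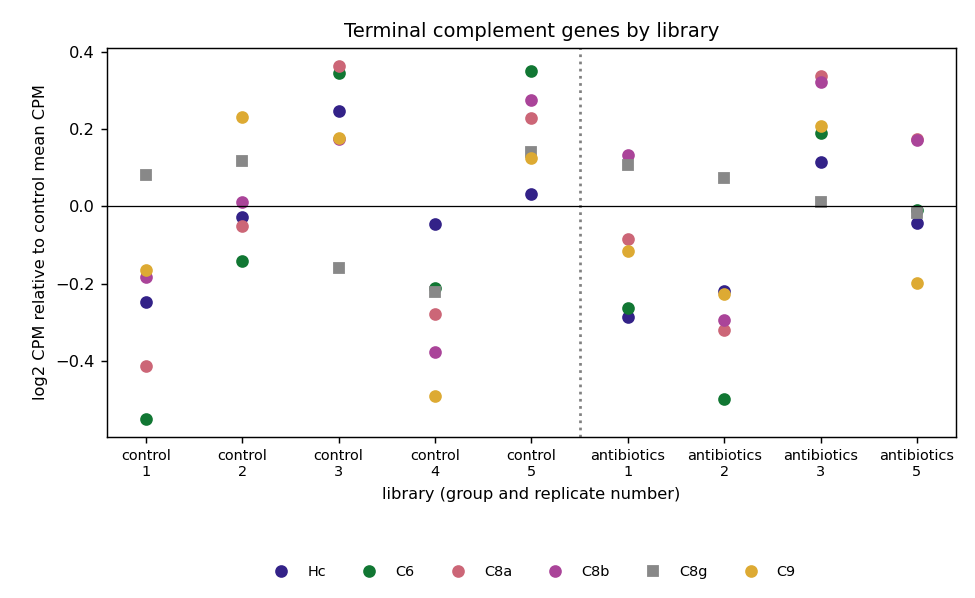
Level of the 6 terminal complement genes in each of the 9 libraries, relative to the gene's control mean (log2). C6, C8a and Hc are high and low in much the same libraries of both groups, C8g follows another order, and control and antibiotics libraries overlap in every gene.

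The neighbours of these genes in the same pathways, 82 genes in 4 lists, were followed in the same fit, and 79 were tested (A2m, C1s2 and Cr2 were not). Of the 79, 1 rose and 1 fell, where 1.63% of all tested genes rose and 1.05% fell. In the list of hepatocyte transcription factors and IL6 signalling the median log2 fold change was 0.06. Nr1h4, which encodes the bile acid receptor FXR, was at 0.25 ± 0.09 (SE, adjusted p = 0.159) and Cebpa at 0.25 ± 0.13 (SE, adjusted p = 0.32), and neither passed.

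F2r, the thrombin receptor PAR1, was the gene that fell among the 25 tested genes of other clotting and fibrinolysis. It measured 30.7, 34.6, 32.7, 31.8 and 33.7 CPM in controls and 26.6, 26.5, 27.7 and 24.4 CPM with antibiotics. The groups did not overlap, and the log2 fold change was -0.32 ± 0.07 (SE, adjusted p = 0.0378). F2r passed in 9 of 18 alternatives, and when single libraries were omitted it passed in 2 of 9 fits, with adjusted p up to 0.111. Endothelial markers summed to 210 to 273 CPM in controls and 207 to 230 CPM with antibiotics, and stellate cell markers to 132 to 197 and 159 to 185 CPM. Their part in the F2r values was not tested. F3, tissue factor, the partner of factor VII, measured 3.05 ± 0.529 and 4.01 ± 0.428 CPM (log2 fold change 0.41 ± 0.16, SE, adjusted p = 0.188). The fibrinogen chain Fga measured 5805 ± 1399 and 4579 ± 242 CPM (log2 fold change -0.34 ± 0.16, SE, adjusted p = 0.29), with control library 5 highest at 7908 CPM. The median of the list was -0.06.

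Genes of vitamin K metabolism outside the 35 also had 0 of 11 passing, with a median of 0.05. At an unadjusted p under 0.05, 0 were higher and 2 lower, where 9.6% and 8.87% of all tested genes were. Calu, calumenin, an inhibitor of the carboxylase in the endoplasmic reticulum, measured 146 ± 10.5 and 128 ± 8.64 CPM (log2 fold change -0.19 ± 0.08, SE, adjusted p = 0.20). Nqo1, a quinone reductase, measured 5.12 ± 1.32 and 3.84 ± 0.173 CPM, and its control mean includes 7.46 CPM in control library 2 (log2 fold change -0.42 ± 0.17, SE, adjusted p = 0.222). Cyp4f14 measured 208 ± 15.1 and 233 ± 36.4 CPM (adjusted p = 0.444).

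In 31 tested complement genes outside the 35, 0 passed and the median was -0.015. At an unadjusted p under 0.05, 3 were higher and 0 lower, beside 9.6% and 8.87% of all tested genes. Among those 3 were Cpn2, a subunit of the carboxypeptidase that trims anaphylatoxins (325 ± 29.5 and 384 ± 29.5 CPM, log2 fold change 0.24 ± 0.09, SE, adjusted p = 0.179) and C4a (25.5 ± 5.24 and 33.0 ± 6.40 CPM, log2 fold change 0.37 ± 0.16, SE, adjusted p = 0.234), the close copy of C4b. Neither passed.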

How the data were processed

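RNA sequencing of liver covered 9 libraries, 5 control and 4 antibiotics, made with a stranded poly(A) kit per the labels' protocols. Values are the authors' estimated counts by gene, deposited as whole numbers. The submitters' processing notes name Salmon and GRCm38. The Salmon version, annotation release, length scaling and use of strand were not given in the sources used here. Symbols, positions and transcript lengths came from GENCODE M21 (GRCm38).

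Genes were filtered with filterByExpr of edgeR 4.0.16 in R 4.3.3 (minimum count 10, minimum total 15), leaving 14873. Counts were scaled by TMM and tested with edgeR's quasi-likelihood F test, group as the only term, with Benjamini-Hochberg adjustment over the tested genes and a threshold of 0.05. The biological coefficient of variation was 16.7%, and the test was checked on simulated data. CPM use TMM-scaled libraries, errors are SDs, and 95% intervals come from the fit. Correlations use exact permutation, two-sided. Alternatives were RLE and upper-quartile factors, library sizes without the 10 most abundant genes, DESeq2 1.42.0, limma-voom (limma 3.58.1), other filters, a replicate block, thinning and omission of each library. Close copies were searched with BLAST+ 2.17.0 (95% identity, 200 bases). Promoters are the 250 bases before RefSeq starts on GRCm38.p6.

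The members and lists were chosen with earlier results of these data known. All 35 members are named. Of the neighbouring lists, genes that pass and the 3 with the smallest p in each are named, except 2 genes that are not reported here. Values in every library are given for the vitamin K genes, for members called by any tool, for the 3 with the widest spread, and, chosen after their values were seen, for C3.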

Additional observations from a re-analysis of the deposited data

Results flagged for a closer look

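In 1 of the 70 groups of libraries examined (35 genes in each of the 2 groups), 1 library lay apart from the rest. Mbl1, the mannose-binding lectin A gene, measured 114 CPM in antibiotics library 2, and the nearest of the other 3 antibiotics libraries measured 137 CPM. That gap was 0.845 of the group's whole range. Chance alone flags about 1 in 20 such groups, or 3.5 of 70. Control library 4, at 118 CPM, was close to the same level.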

How the results depend on the processing

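Among the 35 genes the count that passed was 2 with DESeq2, 1 of them in complement, and 0 in every other alternative. Of the neighbouring genes, 1 passed after thinning to the smallest library and 1 with a replicate block, and 1 to 2 when 1 library was left out. Over all genes DESeq2 called 976 and the replicate block 179. Leaving out 1 library gave 36 to 455, with 36 without antibiotics library 5, 53 and 56 without 1 and 3, 216 without 2, and 171, 165 and 144 without controls 1, 2 and 4, so the background shares rest on those libraries. Small log2 fold changes changed sign. With the replicate block F2 was at -0.0023, F10 -0.017, F12 -0.0053, C2 -0.023, C4b -0.023, C8a -0.0046 and C8g -0.0012. With DESeq2 F10 was at -0.00046, F12 -0.0077 and C4b -0.0025. With no filter on low counts F10 was at -0.0067, Pros1 -0.00018, F12 -0.013 and C4b -0.0090. F12 was at -0.0022 with RLE factors and Vkorc1 at 0.0066 after thinning. Leaving out 1 library moved F2 from -0.0057 to 0.064, F10 from -0.028 to 0.048, Pros1 from -0.056 to 0.065, F5 from -0.0088 to 0.11, F12 from -0.056 to 0.073 and Mbl2 from -0.16 to 0.0078. It moved C2 from -0.028 to 0.10, C4b from -0.028 to 0.085, C3 from -0.12 to 0.054, Cfi from -0.082 to 0.055, C8a from -0.063 to 0.16 and C8g from -0.0051 to 0.082. The cause was not tested. Same-numbered libraries correlated at 0.0624, -0.0115, 0.176 and 0.281. Antibiotics libraries 3 and 5 correlated best with the control of their own number. Antibiotics library 1 correlated best with control 2 (0.0853) and antibiotics library 2 with control 1 (0.247). So few correlations cannot show whether the numbers mark pairs. The main fit did not take them as pairs.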

Other observations

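The subunits of C1q, the antibody-binding start of the classical pathway made by macrophages, were highest in control library 2, at 65.1, 70.5 and 53.5 CPM for C1qa, C1qb and C1qc. The other 8 libraries lay between 18.1 and 32.4 CPM over the 3 genes. The macrophage complement receptor Vsig4 was also highest there, at 31.9 CPM. These 4 genes were chosen after their values were seen. Their adjusted p between the groups ran from 0.343 to 0.575 by edgeR's quasi-likelihood test, and the summed Kupffer cell markers were highest in the same library.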
